A study of Mus musculus with 9 samples.

Results

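BCL2 family genes encode the proteins that decide whether mitochondria release the factors that start apoptosis. The measured set was 10 gene symbols chosen by name: the oocyte gene Bcl2l10, the survival genes Bcl2, Bcl2l1 and Mcl1, the pore-forming effectors Bax, Bak1 and Bok, and the BH3-only genes Bbc3, Pmaip1 and Bcl2l11. Of these 10 symbols, 9 had a row among the 19359 genes of the deposited table, and 8 passed the filter of at least 1 CPM in at least 3 of 9 libraries that 14876 genes passed. CPM gives reads per gene after each library is set to the same total. Bcl2 did not pass the filter, and Bak1 was not analysed here.

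The samples were mouse embryos taken 34 h after fertilization, pooled by 3 for each library, and read as poly(A) RNA. LPN embryos had a later pronuclear transfer, EPN embryos an early one and SPN embryos a sham procedure that served as control, with 3 libraries (A, B and C) in each group. In pronuclear transfer the pronuclei of one zygote are placed in the cytoplasm of another. Per the labels' protocols the egg donors of all groups were B6D2F1 females of 8 to 12 weeks given gonadotropins. The labels do not give the hours of the early and later procedures. Whether different libraries stem from different days or matings is not stated, so each p-value covers the spread between these libraries alone.

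In mammalian cells, BAX and BAK1 form pores in the outer mitochondrial membrane and let cytochrome c out. BCL2, BCL-XL (from Bcl2l1) and MCL1 hold them in check, and BH3-only proteins relay stress signals by binding both sides. Mouse Bcl2l10, also called Diva or Boo, is known for its expression in the ovary and oocytes, and its product has been reported both to inhibit and to promote cell death, so it is kept apart from the survival genes below. Oocytes store many mRNAs that the early embryo translates and then removes.

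Bcl2l10 RNA was lowest after later transfer, with an intermediate level after early transfer. It fell 3.09-fold in LPN against SPN and 2.15-fold in LPN against EPN, and the second call was lost under 10 of 19 alternative settings. The survival gene Bcl2l1 was 2.64-fold lower in LPN than in SPN, at the edge of the threshold (limma adjusted p = 0.0499). Among the tested members, no effector or BH3-only gene passed the test in any comparison, and no member passed in EPN against SPN. Outside the 10 symbols, the BH3-only gene Bik was called lower in LPN against SPN (limma adjusted p = 0.0254). That call was lost under 4 of 19 alternative settings.

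The 3′ ends of the transcripts are shown first, because oocytes store mRNAs and the libraries were made from RNA with a poly(A) tail. Bcl2l10 is known for its expression in oocytes, and its storage and tail length were not measured here. In oocytes and early embryos, stored mRNAs can have their tails lengthened when a U-rich cytoplasmic polyadenylation element lies close to the polyadenylation signal. The sequences below are 30 bases of the sense strand, 5′ to 3′, around the last signal of the annotated principal transcript (GENCODE release M21, GRCm38, an older assembly than that of the authors). Capitals mark the signal AATAAA and, where present, the element TTTTAT or TTTTAAT.
Bcl2l10: tTTTTAATaacttcaaattcttAATAAAtg
Bcl2l11: tgttcttaatgaaTTTTATataAATAAAac
Bcl2l1: gaaggtgaaagtgcagttcagtAATAAAtg
Mcl1: cttctgtttcttctgaagagaaAATAAAcc
Bax: aatggtggcctggggaggcgccAATAAAcc

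All 9 members with a row had AATAAA in the last 50 bases of the transcript, as did 64.4% of 14601 genes of the table with an annotated 3′ untranslated region of at least 100 bases. TTTTAT or TTTTAAT, searched on the sense strand in the last 100 bases, was found in Bcl2l10 and Bcl2l11 and in 18.7% of those genes. In Bcl2l10 the element began 21 bases before the signal, and in Bcl2l11 9 bases before it. These matches describe the annotated ends and are not measured sites.

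Whole reads could be recovered from the CPM values, and library totals ran from 7611781 to 15559218 reads. The 15 markers of the 2-cell embryo summed to 5679 to 8075 CPM in LPN, 4832 to 6371 CPM in EPN, and 4656, 2883 and 2039 CPM in SPN A, B and C, so that SPN A stood apart from the other sham libraries. For the genes named below except Bcl2l2, a call that changed without SPN A is given also without it. The same holds for a printed difference that moved by over 1.5 times without it. Bcl2l2 was not followed through the alternative settings. An oocyte and zygote list of 15 genes had 1535 to 2222 CPM in LPN, 2549 to 3109 CPM in EPN and 3061 to 4028 CPM in SPN. Of 14 cumulus and granulosa cell markers 11 had a row, and their sum was 135 to 201 CPM in LPN, 184 to 209 CPM in EPN and 168 to 183 CPM in SPN. Of these 11, Foxl2 and Cyp11a1 stayed below 1 CPM in every library, and the other 9 reached 1 CPM in at least 1 library. Of 10 blood cell markers 5 had a row, and their sum was 20.2 to 46.4 CPM in LPN, 42.9 to 92.8 CPM in EPN and 55.1 to 110 CPM in SPN, and that of 6 sperm markers was at most 12.3 CPM in any library.

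Scaled for transcript length, Bcl2l10 was by far the most abundant member. Its level averaged 420 ± 120 CPM per kilobase in LPN, 884 ± 71.1 in EPN and 1289 ± 309 in SPN (SD, n = 3 each). Its mean over the 9 libraries exceeded that of 99.6% of the 12990 tested genes with an annotated length. The next members were far below it and overlapped each other: over all libraries Mcl1 ran from 18.3 to 44.3 CPM per kilobase, Bax from 11.2 to 29.3, Bcl2l11 from 11.4 to 23.7 and Bcl2l1 from 3.84 to 26.2. Pmaip1 spanned 1.86 to 21.5 CPM per kilobase, Bok 0.268 to 4.31 and Bbc3 0 to 1.93. Bcl2l10 made up 81.1% to 89.6% of the summed length-scaled level of the 9 members in LPN, 89.7% to 90.2% in EPN and 89.3% to 95.1% in SPN.

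**Figure D1:**
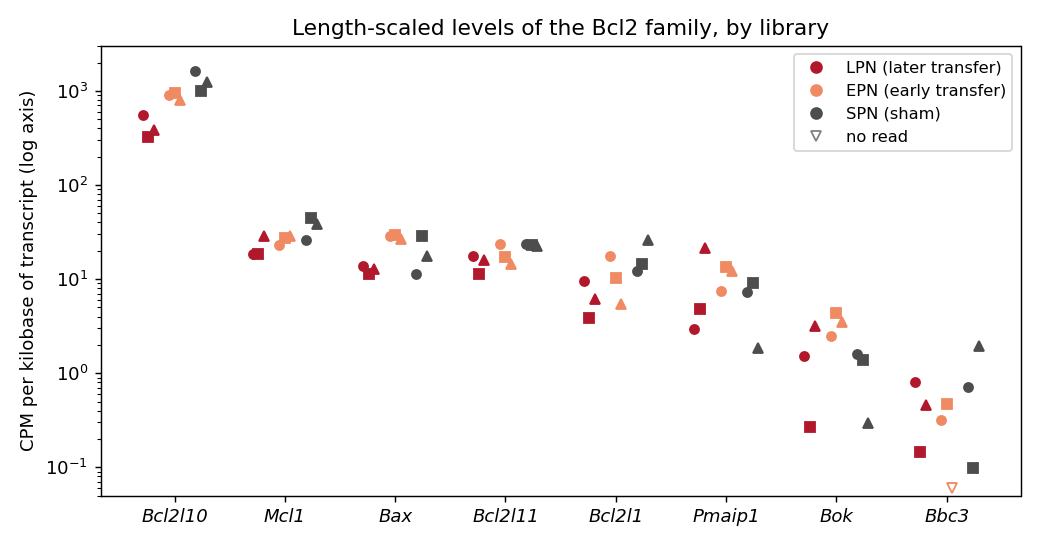
Length-scaled level (CPM per kilobase of the annotated principal transcript, log axis) of 8 members in each library, by group; circles, squares and triangles are libraries A, B and C. Bcl2l10 lay above every other member in all 9 libraries, from 324 to 1617 CPM per kilobase, and Bbc3 was the lowest of the 8 in every library except SPN C, with no read in EPN C (open triangle at the foot of the axis). Bcl2, at 24 reads in all libraries together, is not drawn.

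Bcl2l10 was at 676, 395 and 466 CPM in LPN A, B and C. In EPN A, B and C it was at 1102, 1151 and 983 CPM, and in SPN A, B and C at 1972, 1225 and 1522 CPM. The 3 groups did not overlap: every LPN library was below every EPN library, and every EPN library below every SPN library. Of all tested genes, 16.2% were lower without overlap in LPN against SPN, 15.3% in LPN against EPN and 7.56% in EPN against SPN. The share of genes with this full order of the 3 groups was not computed. The counts behind these values were 3007 to 27533 reads per library.

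Later transfer was set against the sham procedure with one limma model of log2(CPM + 1) over all 9 libraries and all 14876 tested genes. Bcl2l10 averaged 512 ± 146 CPM in LPN and 1573 ± 376 CPM in SPN (SD, n = 3 each), a log2 difference of -1.63 (SE 0.27, 95% interval -2.18 to -1.07, limma adjusted p = 0.00145). All tested genes had a median of -0.17 log2 in this comparison, and relative to it Bcl2l10 was at -1.46. The call held under all 19 alternative settings, with log2 differences from -1.84 to -1.39, and without SPN A the value was -1.45. Only 0.0807% of the tested genes had a smaller p-value. In this comparison 5.54% of all tested genes were called lower and 3.26% higher. The summed oocyte and zygote markers were lower and the summed 2-cell markers higher in LPN than in SPN, without overlap, and their part in the result was not tested. CPM is relative to the library total, and in whole-embryo RNA a smaller share of cells holding a transcript and less of it per cell cannot be told apart.

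In EPN, Bcl2l10 averaged 1079 ± 86.7 CPM, against 1573 ± 376 CPM in SPN (SD, n = 3 each). The log2 difference of -0.52 (SE 0.27, 95% interval -1.08 to 0.04) did not pass (limma adjusted p = 0.482), although the libraries did not overlap. Without SPN A the log2 difference was -0.34. The highest EPN library and the lowest SPN library were 1151 and 1225 CPM. In this comparison 7.56% of all tested genes had every EPN library below every SPN library, and 0.108% were called, 0.0739% higher and 0.0336% lower.

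Between the transfers, Bcl2l10 averaged 512 ± 146 CPM in LPN and 1079 ± 86.7 CPM in EPN (SD, n = 3 each). The log2 difference was -1.11 (SE 0.27, 95% interval -1.66 to -0.55, limma adjusted p = 0.0389), and 0.84% of all tested genes were called lower and 0.692% higher. All tested genes had a median of -0.14 log2 here. The direction was the same under all 19 alternative settings, but the call was lost without any 1 of the 6 transfer libraries (adjusted p = 0.0552 to 0.2), with median-of-ratios scaling (log2 difference -0.98, adjusted p = 0.11) and with edgeR's quasi-likelihood test on the recovered reads (-0.97, adjusted p = 0.144).

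**Figure D2:**
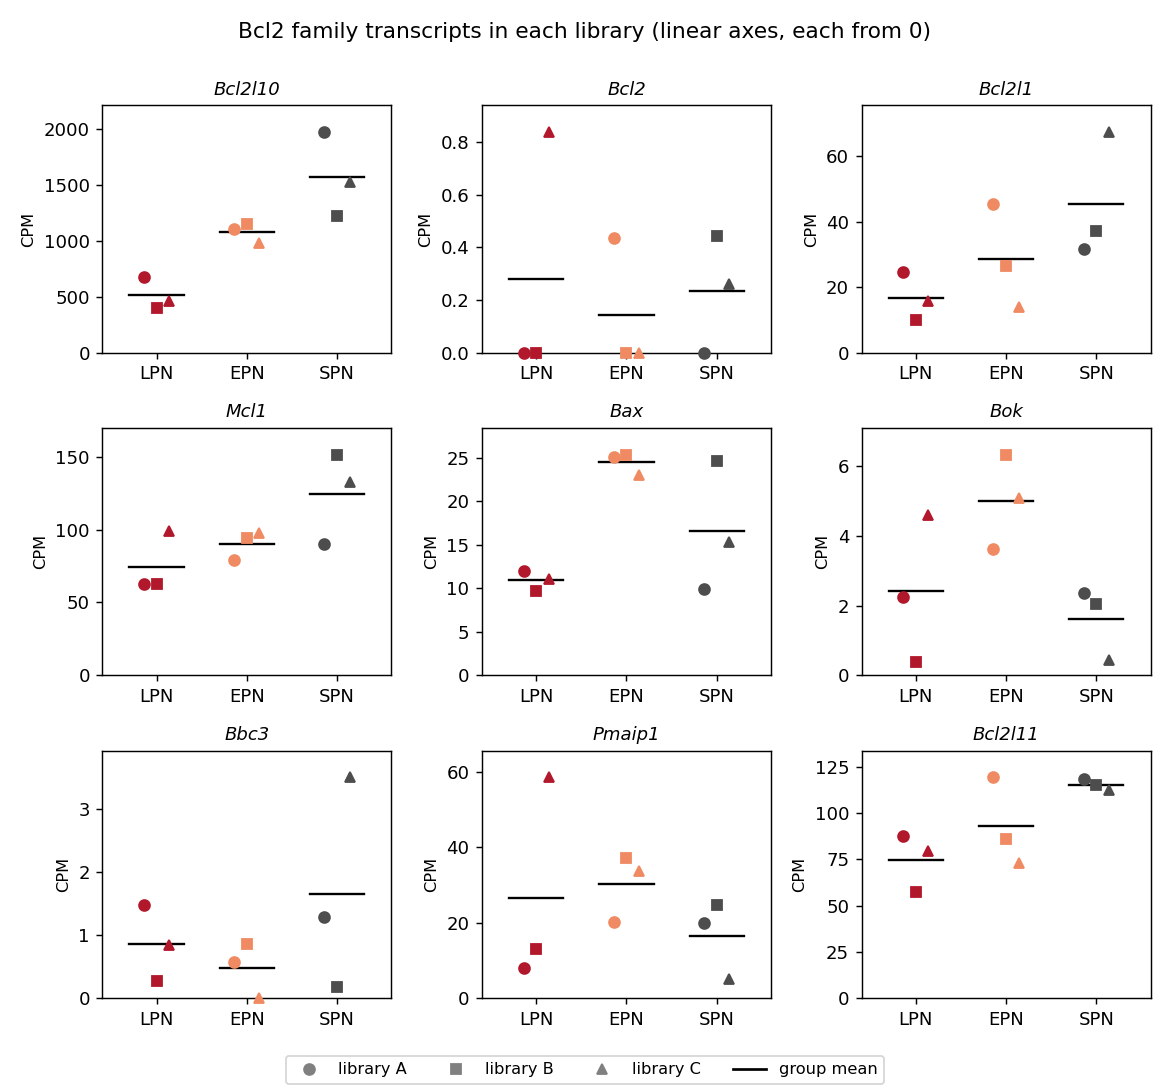
CPM of the 9 members with a row in each library (linear axes from 0, a separate scale for each gene), with LPN, EPN and SPN from left to right; the horizontal line is the mean of 3 libraries. The Bcl2l10 libraries form 3 separate ranges, 395 to 676, 983 to 1151 and 1225 to 1972 CPM. Pmaip1 and Bbc3 vary within a group as much as between groups. For Bok, LPN overlaps both other groups, and the EPN libraries lie above the SPN libraries.

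Among the survival genes, Bcl2l1 encodes BCL-XL, which keeps many cell types alive. It had 24.6, 9.85 and 15.8 CPM in LPN A, B and C, 45.5, 26.6 and 13.9 CPM in EPN, and 31.7, 37.2 and 67.4 CPM in SPN. The LPN libraries were all below the SPN libraries, as in 16.2% of all tested genes, and the EPN libraries spanned both ranges. Bcl2l1 averaged 16.7 ± 7.4 CPM in LPN and 45.4 ± 19.2 CPM in SPN (SD, n = 3 each), a log2 difference of -1.40 (SE 0.46, limma adjusted p = 0.0499). This call was lost under 13 of 19 alternative settings, among them median-of-ratios scaling (-1.23, adjusted p = 0.071), edgeR (-1.24, adjusted p = 0.113) and DESeq2 (-1.22, adjusted p = 0.059), and without LPN A, LPN B, LPN C, SPN B, SPN C or EPN B (adjusted p = 0.0508 to 0.258). In EPN against SPN its log2 difference was -0.72 (SE 0.46, adjusted p = 0.584), and in LPN against EPN it was -0.68 (SE 0.46, adjusted p = 0.422). The first was -1.12 without EPN A, -0.30 without EPN C and -0.40 without SPN C. The second was -0.28 without EPN A, -1.10 without EPN C and -0.37 without LPN B.

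Mcl1 encodes a short-lived survival protein that mouse embryos need to implant. It had 62.7, 62.5 and 98.8 CPM in LPN A, B and C, 79.1, 94.4 and 97.4 CPM in EPN, and 89.8, 152 and 132 CPM in SPN. LPN C lay above SPN A, so these groups overlapped. The log2 difference of LPN against SPN was -0.73 (SE 0.32, 95% interval -1.38 to -0.09, limma adjusted p = 0.13). It passed without SPN A (log2 difference -0.95, adjusted p = 0.0306) and with array quality weights (-0.96, adjusted p = 0.0207). In EPN against SPN the difference was -0.43 (SE 0.32, adjusted p = 0.644), with -0.65 without SPN A and -0.28 without SPN B.

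Bcl2, the founding member of the family, was close to the limit of detection, with 24 reads in all libraries together. It had 0.838 CPM in LPN C, 0.434 CPM in EPN A, 0.443 CPM in SPN B and 0.262 CPM in SPN C, and no read in the other 5 libraries. A count of 0 allows up to 3 reads, or 0.193 to 0.394 CPM depending on the library. Counting error alone is covered by these limits, because amplified reads carry no molecular identifiers. No difference was detectable at this depth. In GENCODE M21 an antisense gene, D630008O14Rik, overlaps Bcl2, and in these counts its reads cannot be told apart from those of Bcl2.

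Bax, the pore-forming effector, had 12.0, 9.72 and 11.1 CPM in LPN A, B and C, 25.2, 25.4 and 23.1 CPM in EPN, and 9.89, 24.6 and 15.3 CPM in SPN. LPN and EPN were tight and did not overlap, while SPN spread over both. In GENCODE M21 Bax overlaps the same-strand gene Gm45808, so its counts may hold reads of both. The log2 difference of LPN against EPN was -1.10 (SE 0.46, 95% interval -2.05 to -0.15), which did not pass over all genes (limma adjusted p = 0.19). In this comparison 15.3% of all tested genes had every LPN library below every EPN library. Against SPN the log2 differences were -0.48 (SE 0.46, adjusted p = 0.535) for LPN and 0.62 (SE 0.46, adjusted p = 0.65) for EPN. Without SPN A these were -0.78 for LPN and 0.32 for EPN, and without SPN B -0.16 for LPN and 0.94 for EPN.

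Bok encodes a further pore-forming relative of BAX. It had 2.25, 0.394 and 4.61 CPM in LPN A, B and C, 3.61, 6.33 and 5.09 CPM in EPN, and 2.36, 2.04 and 0.437 CPM in SPN. All EPN libraries were above all SPN libraries, as in 7.07% of all tested genes, and LPN overlapped both. The log2 difference of EPN against SPN was 1.27 (SE 0.66, 95% interval -0.06 to 2.61, limma adjusted p = 0.475). These values rest on 3 to 81 reads per library.

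Of the BH3-only genes, Bcl2l11 encodes BIM, which can bind every survival protein of the family. It had 87.7, 57.5 and 79.5 CPM in LPN A, B and C, 119, 86.2 and 72.9 CPM in EPN, and 118, 115 and 112 CPM in SPN. The SPN libraries lay close together (115 ± 3.0 CPM, SD, n = 3) and above every LPN library. Of all tested genes, 16.2% had every LPN library below every SPN library. The log2 difference of LPN against SPN was -0.64 (SE 0.31, 95% interval -1.27 to -0.00354), with limma adjusted p = 0.183. In EPN against SPN it was -0.34 (SE 0.31, adjusted p = 0.715), with -0.53 without EPN A and -0.18 without EPN C.

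Pmaip1 encodes NOXA, a p53-induced protein that binds MCL1. It had 8.03, 13.0 and 58.6 CPM in LPN A, B and C, 20.2, 37.0 and 33.6 CPM in EPN, and 19.8, 24.5 and 5.07 CPM in SPN. LPN C was the highest of all 9 libraries and LPN A was below all EPN libraries. The log2 differences were 0.41 in LPN against SPN (SE 0.57, limma adjusted p = 0.679) and 1.04 in EPN against SPN (SE 0.57, adjusted p = 0.508). Without LPN C the first became -0.39, and without SPN C -0.23, and without 1 of the other LPN or SPN libraries it was 0.65 to 0.97 (0.65 without SPN A). Without SPN C the second was 0.39.

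Bbc3 encodes PUMA, another p53-induced BH3-only protein. It stayed low, with 1.48, 0.263 and 0.838 CPM in LPN A, B and C, 0.578, 0.859 and 0 CPM in EPN, and 1.29, 0.177 and 3.50 CPM in SPN. These values rest on 0 to 40 reads per library, and the groups overlapped in every comparison. The smallest adjusted p of Bbc3 among the 3 comparisons was 0.71.

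**Figure D3:**
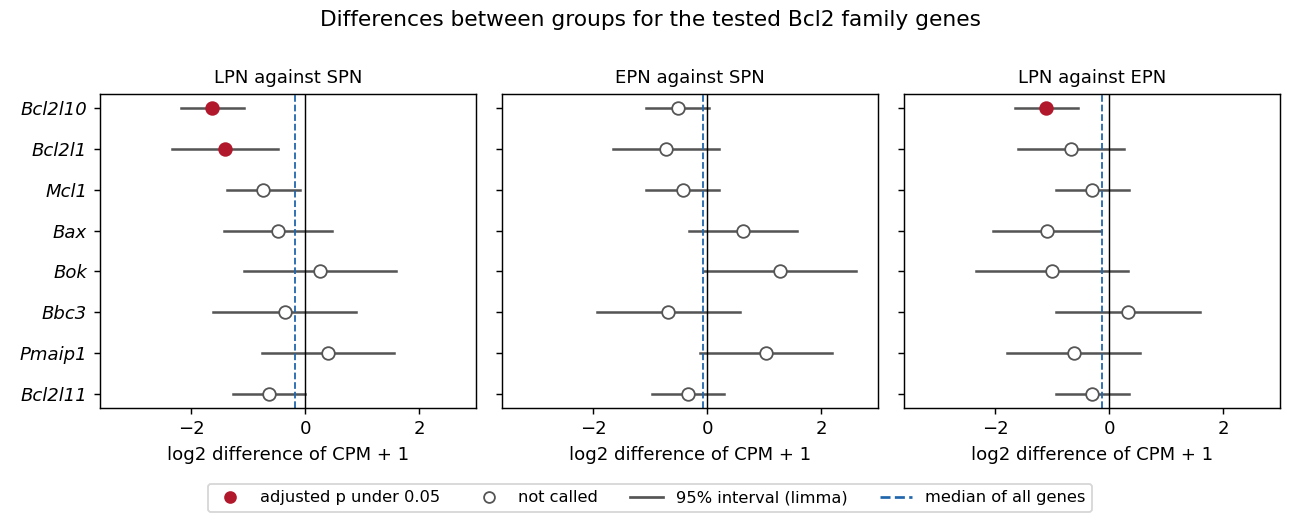
Log2 difference of CPM + 1 with its 95% interval for the 8 tested members in the 3 comparisons; filled points passed a limma adjusted p of 0.05 over all 14876 genes, and the dashed line is the median of all genes. Bcl2l10 and Bcl2l1 were called in LPN against SPN and Bcl2l10 in LPN against EPN, and the intervals of all members in EPN against SPN include 0.

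Across the 8 tested members, 2 were called lower in LPN against SPN and none higher, 1 was called lower in LPN against EPN, and 0 were called in EPN against SPN, where 0 also had an unadjusted p under 0.05 (11% of all tested genes did) and neither edgeR nor DESeq2 called a member. The shares of all tested genes called in either direction were 8.8% in LPN against SPN, 1.53% in LPN against EPN and 0.108% in EPN against SPN. The median log2 difference of the 8 members was -0.56 in LPN against SPN, beside -0.17 for all tested genes. It was -0.39 in EPN against SPN, beside -0.07, and -0.66 in LPN against EPN, beside -0.14. The first 2 comparisons share the SPN libraries, and the LPN and EPN libraries each enter 2 of the 3 comparisons.

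Without Bcl2l10, the length-scaled levels of Bcl2, Bcl2l1 and Mcl1 summed to 22.1 to 35.1 CPM per kilobase in LPN, 33.9 to 40.9 in EPN and 38.6 to 65.0 in SPN. Those of the effectors and BH3-only genes together summed to 27.8 to 53.6 CPM per kilobase in LPN, 56.9 to 64.8 in EPN and 44.1 to 61.7 in SPN. The ratio of the second sum to the first was 1.26 to 1.53 in LPN, 1.54 to 1.71 in EPN and 0.678 to 1.15 in SPN. The ratio was lower in each SPN library than in each transfer library. These sums are descriptions of RNA levels over the measured members, without Bak1, and carry no test.

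Other genes of the pathway were counted from lists of known function. Of 15 further BCL2 family genes 9 were tested, and in LPN against SPN 1 rose and 1 fell, where 3.26% of all tested genes were called higher and 5.54% lower. Bnip3, a mitophagy receptor with a BH3-like motif, had 472, 511 and 414 CPM in LPN A, B and C, against 277, 180 and 143 CPM in SPN. Its log2 difference was 1.27 (SE 0.28, limma adjusted p = 0.00709), and EPN was at 338, 297 and 274 CPM. The call was lost without SPN C (log2 difference 1.05, adjusted p = 0.0778). No gene of the list was called in the other comparisons, but in EPN against SPN Bnip3 passed without SPN A (log2 difference 0.91, adjusted p = 0.0416), against 0.65 with all libraries. Bik, a BH3-only gene, was at 22.1, 11.3 and 13.1 CPM in LPN, against 48.1, 30.8 and 55.3 CPM in SPN (log2 difference -1.49, SE 0.41, adjusted p = 0.0254). That call was lost under 4 of 19 alternative settings, among them without LPN B (adjusted p = 0.114), without SPN C (0.148) and with edgeR (0.0615). The median of the 9 genes was 0.42 log2, beside -0.17 for all genes.

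Of 12 genes of mitochondrial release and the apoptosome, which turns released cytochrome c into caspase activation, all were tested and 2 rose in LPN against SPN, where 3.26% of all tested genes were called higher. Aifm1, a flavoprotein of the intermembrane space that can move to the nucleus in dying cells, averaged 107 ± 19.3 CPM in LPN and 46.5 ± 20.3 CPM in SPN (SD, n = 3 each; log2 difference 1.28, SE 0.35, limma adjusted p = 0.0223). Mtch2, an outer-membrane insertase that also receives truncated BID, averaged 225 ± 25.1 CPM in LPN and 115 ± 34.3 CPM in SPN (log2 difference 0.99, SE 0.29, adjusted p = 0.0309). The Aifm1 call was lost without LPN B, LPN C or SPN B (adjusted p = 0.0608 to 0.148, with a log2 difference of 0.85 without SPN B), and the Mtch2 call without LPN A, LPN B, LPN C, SPN B or SPN C (0.0589 to 0.177). With edgeR the adjusted p was 0.0507 for Aifm1 and 0.0668 for Mtch2, and in all 5 and 8 of 19 settings ended the 2 calls. The list median was 0.07 log2, beside -0.17 for all genes. No gene of the list was called in the other comparisons, and the smallest p in EPN against SPN belonged to Oma1, a protease of the inner membrane (log2 difference 2.24, SE 0.66, adjusted p = 0.191). Oma1 was at 0 CPM in SPN C, and without that library the log2 difference was 1.38 (adjusted p = 0.662).

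None of the 14 tested caspases and caspase inhibitors, of 20 listed, passed in any comparison. The smallest p in LPN against SPN was that of Birc3, an inhibitor of apoptosis protein, at 37.0 ± 5.59 CPM in LPN and 76.3 ± 6.7 CPM in SPN (SD, n = 3 each; log2 difference -1.03, SE 0.34, limma adjusted p = 0.0512). It passed under 5 of 19 alternative settings, among them without SPN A (adjusted p = 0.0275) and with DESeq2 (0.0335). The list median was 0.11 log2 in LPN against SPN, beside -0.17 for all genes, with 7 of 14 differences below 0. The share of all tested genes below 0 was not computed. Birc3 also had the smallest p in LPN against EPN (log2 difference -0.96, adjusted p = 0.118), and Casp6 in EPN against SPN (1.18, adjusted p = 0.46). The Casp6 value was 1.88 without SPN A and 0.44 without SPN C.

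Of 21 regulators of the family, all tested, 1 rose and 2 fell in LPN against SPN, beside 3.26% of all tested genes called higher and 5.54% lower, and none was called in the other comparisons. Ddit3 encodes CHOP, a transcription factor of the stress response to unfolded proteins that can raise Bcl2l11. It had 254, 357 and 211 CPM in LPN A, B and C, 143, 117 and 132 CPM in EPN, and 80.3, 103 and 108 CPM in SPN. The log2 difference of LPN against SPN was 1.46 (SE 0.29, limma adjusted p = 0.00382), and the call held under all 19 alternative settings. In LPN against EPN it was 1.03 (SE 0.29, adjusted p = 0.0574), and this difference passed under 7 of 19 settings, among them without SPN A (adjusted p = 0.0238). Foxo3, a transcription factor known to raise Bcl2l11 and Bbc3, had 38.0, 29.2 and 38.6 CPM in LPN, 80.8, 56.1 and 56.2 CPM in EPN, and 46.9, 140 and 183 CPM in SPN. Its log2 difference of LPN against SPN was -1.58 (SE 0.39, adjusted p = 0.0124), and the call was lost without a filter and without LPN B, SPN B or SPN C (adjusted p = 0.0662 to 0.142 without 1 of these libraries). In EPN against SPN it passed only without SPN A (log2 difference -1.32, adjusted p = 0.0259), against -0.74 with all libraries (adjusted p = 0.479) and -0.35 without SPN C. Trp73, a relative of p53, was at 1.52 ± 1.06 CPM in LPN and 8.48 ± 3.13 CPM in SPN (SD, n = 3 each; log2 difference -1.95, SE 0.63, adjusted p = 0.0487). This call was lost under 14 of 18 alternative settings, among them every omission of 1 library except SPN A, with adjusted p = 0.0533 to 0.197. The list median was -0.65 log2 in LPN against SPN, beside -0.17 for all genes, with 18 of 21 differences below 0. The median of all genes was itself below 0, and the share of all tested genes below 0 was not computed.

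Of 7 genes whose products are known to bind BCL2L10 or its partners, all tested, none was called in any comparison. Tpx2, a spindle assembly factor and activator of Aurora kinase A reported to bind BCL2L10 in mouse oocytes, had 644, 626 and 776 CPM in LPN A, B and C, 590, 624 and 849 CPM in EPN, and 601, 325 and 296 CPM in SPN. Its log2 difference was 0.81 in LPN against SPN (SE 0.28, limma adjusted p = 0.0652) and 0.81 in EPN against SPN (SE 0.28, adjusted p = 0.273), and both passed without SPN A (1.13 in each, adjusted p = 0.00306 and 0.0133). Itpr2, an inositol trisphosphate receptor, had the smallest p in LPN against EPN (log2 difference -1.16, SE 0.42, adjusted p = 0.126). The medians of the 7 genes were -0.69 log2 in LPN against SPN, beside -0.17 for all genes, and 0.47 in EPN against SPN, beside -0.07.

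The 5 genes whose log2(CPM + 1) was most like that of Bcl2l10 over the 9 libraries were taken from 5723 genes that averaged 20 CPM or more. They were Slc43a3, a purine transporter gene (Pearson r = 0.976), Klhl15, an adaptor of a ubiquitin ligase (0.975), the LIM-domain gene Lmo1 (0.974), the homeobox gene Meis2 (0.974) and the oocyte gene Nlrp4f (0.959). These r values describe the highest of many genes, over libraries that fall into groups and differ in total reads. Lmo1 had 723, 459 and 445 CPM in LPN A, B and C, 1257, 988 and 1187 CPM in EPN, and 1740, 1294 and 1635 CPM in SPN. In LPN against SPN the log2 differences were -1.93 for Slc43a3 (limma adjusted p = 0.00428), -0.85 for Klhl15 (0.1), -1.55 for Lmo1 (0.00182), -1.35 for Meis2 (0.00564) and -1.46 for Nlrp4f (0.00333). Without SPN C, Meis2 had an adjusted p of 0.0509.

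**Figure D4:**
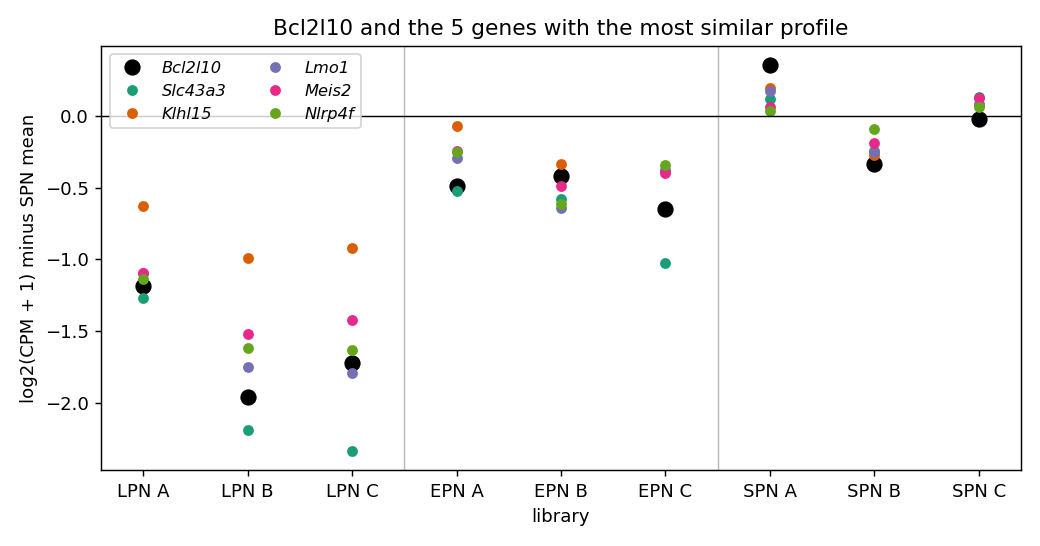
Log2(CPM + 1) minus its SPN mean, in each library, for Bcl2l10 and the 5 genes with the highest Pearson r to it. In LPN all 6 genes lay below their SPN mean in every library, with Klhl15 nearest to 0, and the genes were chosen for this likeness.

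**Figure D5:**
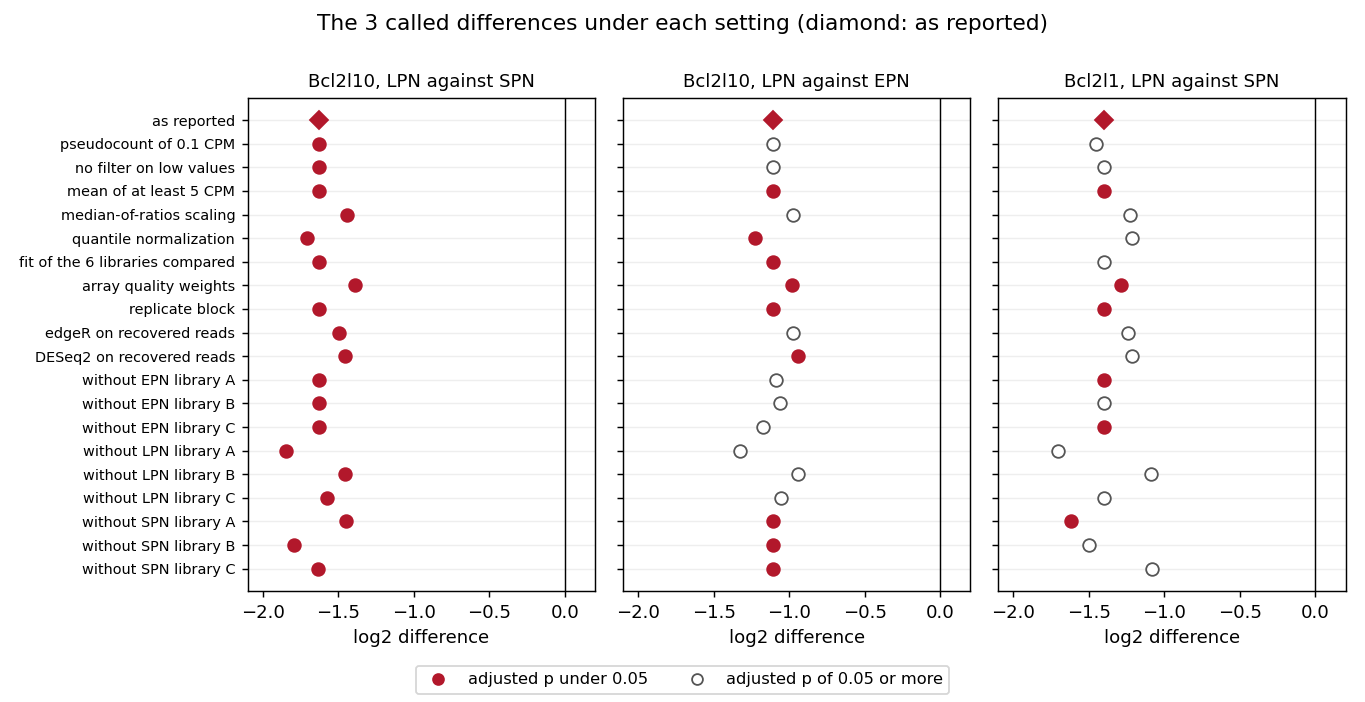
Log2 difference of the 3 called member results as reported (diamond) and under 19 alternative settings, filled where the adjusted p was under 0.05. Bcl2l10 in LPN against SPN stayed filled throughout, from -1.84 to -1.39, while Bcl2l10 in LPN against EPN lost the call under 10 settings and Bcl2l1 in LPN against SPN under 13.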

How the data were processed

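Poly(A) RNA of 9 mouse embryo pools was sequenced as 150-bp paired ends after Smart-seq2 v4 amplification and Nextera XT library preparation, per the labels' protocols. The submitters' processing notes name HISAT2 2.2.1, edgeR, Trim Galore 0.6.7 and R 3.3.3, and the GRCm39 build; counter, strand setting and annotation are not given in the sources used here. CPM values of 19359 genes were deposited by the authors, 1 column per library. Dividing them by the value of 1 read gave whole numbers for 100% of entries (tolerance 0.01 reads), and so the reads and library totals; the table left out 3.66% to 5.68% of each total. Libraries of a group differed by more than sampling noise (chi-square per degree of freedom at least 37.1), so none was merged.

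Values were log2(CPM + 1). Genes that reached 1 CPM in 3 or more libraries entered one limma model (limma 3.58.1, R 4.3.3, trend, 25.9 prior degrees of freedom), with Benjamini-Hochberg adjustment over 14876 genes per comparison and calls at an adjusted p of 0.05. Changes on this scale understate changes of low genes. Transcript lengths and 3′ ends came from GENCODE M21 principal transcripts. The members, pathway lists and naming rule were chosen with earlier results of these data known. All members were named. Of each list, every called gene was named, or the one with the smallest p, and Bcl2l2 in addition. The 5 genes most like Bcl2l10 with a mean of at least 20 CPM were also named. The 19 alternatives were other pseudocounts, filters and scalings, a fit of 6 libraries, array weights, a block, edgeR 4.0.16 and DESeq2 1.42.0 on recovered reads, and leaving out each library. The pipeline was tested on simulated data.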

Additional observations from a re-analysis of the deposited data

Results flagged for a closer look

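The change of Bcl2l10 from the shared SPN libraries differed between the 2 transfer times: the limma contrast of LPN against EPN, which is the test of that difference, gave a log2 value of -1.11 (adjusted p = 0.0389). That call was lost under 10 of 19 alternative settings, among them leaving out any single transfer library. Bcl2l10 was at 395 to 676 CPM in LPN and 983 to 1151 CPM in EPN, lower in 3 of 3 LPN libraries. The summed oocyte and zygote markers were also lower in LPN (1535 to 2222 CPM) than in EPN (2549 to 3109 CPM), and their part in the result was not tested.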

How the results depend on the processing

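Bcl2l10 in LPN against SPN kept its direction and call under all 19 alternatives, and the 0 member calls of EPN against SPN stayed at 0. In LPN against EPN, Bcl2l10 lost its call with a pseudocount of 0.1 CPM (log2 difference -1.11, adjusted p = 0.0597), without a filter (-1.11, 0.108), with median-of-ratios scaling (-0.98), with edgeR (-0.97), and without 1 transfer library (the values without 1 library ran from -1.33 to -0.94); member calls were then 0. Member calls in LPN against SPN were 1 with a pseudocount of 0.1 CPM, no filter, median-of-ratios scaling, quantile normalization, the fit of 6 libraries, edgeR or DESeq2, and 1 to 3 without 1 library. Pmaip1 in LPN against SPN reversed with array quality weights (-0.081), without LPN C (-0.39) and without SPN C (-0.23), and Bok without LPN C (-0.20) and without SPN C (-0.12); without 1 library they reached 0.97 and 0.80 at most. The cause was not tested.

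Counts over all genes depended on single libraries and settings. In EPN against SPN, 16 genes were called as reported, 4 with a pseudocount of 0.1 CPM, 0 without a filter (19189 genes tested), 3 with median-of-ratios scaling, 0 in the fit of 6 libraries, 313 with array quality weights, 0 with edgeR (1304 at an unadjusted p under 0.05), 116 with DESeq2, and 0 to 458 without 1 library. In LPN against SPN, 1309 were called as reported, 494 without a filter, 659 in the fit of 6 libraries, 2731 with array quality weights, 477 with edgeR and 123 to 2753 without 1 library. In LPN against EPN, 228 were called as reported, 62 with a pseudocount of 0.1 CPM, 0 without a filter, 395 with a mean of at least 5 CPM, 464 in the fit of 6 libraries, 1321 with array quality weights, 17 with edgeR, 935 with DESeq2 and 4 to 789 without 1 library; the highest counts were without SPN A.

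Library letters are shared between groups. The deviations of same-letter libraries from their group means correlated at -0.02 to 0.09 (median 0.05). Those of other library pairs correlated at -0.10 to 0.10 (median -0.01). Whether the letters pair the samples cannot be told from these values, and the reported model did not pair them. With the letter as a replicate block, 25 calls were made for EPN against SPN and 480 for LPN against EPN. Bcl2l10 then had adjusted p = 0.0192 in LPN against EPN. Bcl2 and Bbc3 rest on few reads, which limits what their values can show.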
